A study of Homo sapiens with 6 samples.

Results

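The genes of fatty acid synthesis and lipid droplets were followed through ZNF395 knockdown in human clear cell renal cell carcinoma lines. The set was given as 36 gene symbols that span the making of fatty acids, their desaturation, activation and assembly into triglyceride, and the coating and breakdown of the droplets that hold it. A gene belonged to the set if its symbol stood in the count table, which was so for 35 of the 36, out of 32357 genes in all. LPL, the lipoprotein lipase gene, was not analysed here. All 35 passed the filter on low counts, as 20144 genes of the table did.

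Fatty acid synthesis turns citrate into cytosolic acetyl-CoA, then malonyl-CoA and palmitate, and is switched on largely by the transcription factor SREBP-1c, a product of SREBF1. Surplus fatty acids are esterified to triglyceride and stored in lipid droplets, whose surface carries perilipins, and lipases release them again. Clear cell renal carcinoma takes its name from the droplets and glycogen that fill its cells and wash out in histology, and PLIN2 is the perilipin best known there.

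RNA was compared in A-498 and 786-O, 2 established lines of this carcinoma, both known for lacking a working VHL tumour suppressor. Each line carried, stably, a MISSION short hairpin against ZNF395 (hairpin 3 or hairpin 1) or a non-targeting control. All 6 populations had thus been transduced with virus packaged in HEK293T cells and selected with puromycin for 3 days, and all were grown in RPMI-1640 with serum. The labels give no other treatment and no clonal selection. Each line and construct had 1 library, so that the lines served as replicates of a construct. The p-values therefore measure the spread that a model leaves between these libraries, and no spread between repeat cultures was measured. Both hairpins were set against the same controls. The sources used here do not give the hairpin sequences.

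The libraries held 77534125 to 99147218 counts, so that a level of 1 CPM (counts scaled by library size with TMM) stood for 77.5 to 99.1 counts. ZNF395 itself stood at 14.3 CPM with hairpin 3, 14.5 CPM with hairpin 1 and 67.9 CPM in the control of A-498. In 786-O it stood at 13.5 CPM with hairpin 3, 24.7 CPM with hairpin 1 and 96.3 CPM in the control. The fall passed the test with hairpin 3 (log2 fold change -2.52, adjusted p = 0.00973) and with hairpin 1 (-2.08, adjusted p = 0.0269, not past the threshold in 3 of 10 alternative fits, those without either control or without the 786-O hairpin 1 library), and the hairpins did not differ past the threshold (-0.44, adjusted p = 0.217). Of the renal markers, PAX8 (157 to 256 CPM), PAX2 (17.7 to 26.6 CPM), KRT8 (589 to 1325 CPM) and VIM (795 to 2065 CPM) were present in every library, whereas CA9 (0 to 1.67 CPM) and NDUFA4L2 (0.0749 to 1.16 CPM), HIF targets that mark the clear cell tumour, were near 0, and VEGFA, also a HIF target, stood at 141 to 342 CPM. The renal list summed to 2697 to 3663 CPM with hairpin 3, 2868 to 3265 CPM with hairpin 1 and 2903 to 3412 CPM in the controls. Of these 9 genes EPAS1, which encodes HIF-2alpha, rose with hairpin 3 against the control, where 2.55% of all genes tested rose. It had 207.6 CPM with hairpin 3, 78.4 CPM with hairpin 1 and 115 CPM in the control of A-498. The same libraries of 786-O had 259 CPM, 122 CPM and 158 CPM. Against hairpin 1, 4 of the 9 were higher with hairpin 3, where 4.09% of all genes tested were higher. The 9 include CA9 and NDUFA4L2, near 0 as given above. The part of these genes in the lipid results was not tested. Macrophage and leukocyte markers summed to 1.49 to 5.47 CPM over all libraries. Adipocyte markers, 6 of 8 of which were in the table, summed to 89.9 to 168 CPM, most of it ADIPOR2. The others were LEP (0 to 0.0204 CPM), FABP4 (0.0133 to 0.612 CPM), PLIN1 (0.102 to 0.756 CPM), CFD (0.693 to 5.13 CPM) and PLIN4 (0.0533 to 9.14 CPM). HEK293-associated markers summed to 199.97 to 444 CPM, most of it NEFL.

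Much of the synthesis arm was lower with hairpin 3. Compared with the controls, 8 of the 35 genes fell and 0 rose at an adjusted p under 0.05 (edgeR quasi-likelihood F test, adjusted over all genes tested), where 6.71% of all genes tested were called, 4.16% falling and 2.55% rising. The 8 were SCD, ACSL4, FADS2, GPAM, FASN, ACLY, ACSL3 and ACACA. The median log2 fold change was -0.31 over the 35 genes, of which 24 were negative, and -0.0095 over all genes. The calls leaned on the controls. Without the A-498 control, 1 gene of the set (SCD) was still called, among 121 genes called in all, and without the 786-O control 2 were (SCD and ACSL4), among 235 in all. Without the 786-O hairpin 1 library 5 were called, all but ACACA, FASN and ACSL3, in a fit that called 4.43% of all genes. Without the A-498 hairpin 1 library all 8 were still called, in a fit that called 9.89% of all genes. Every fit with 1 library left out had 1 residual degree of freedom in place of 2. In bulk RNA, fewer cells of a kind and less RNA per cell cannot be told apart.

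**Figure D1:**
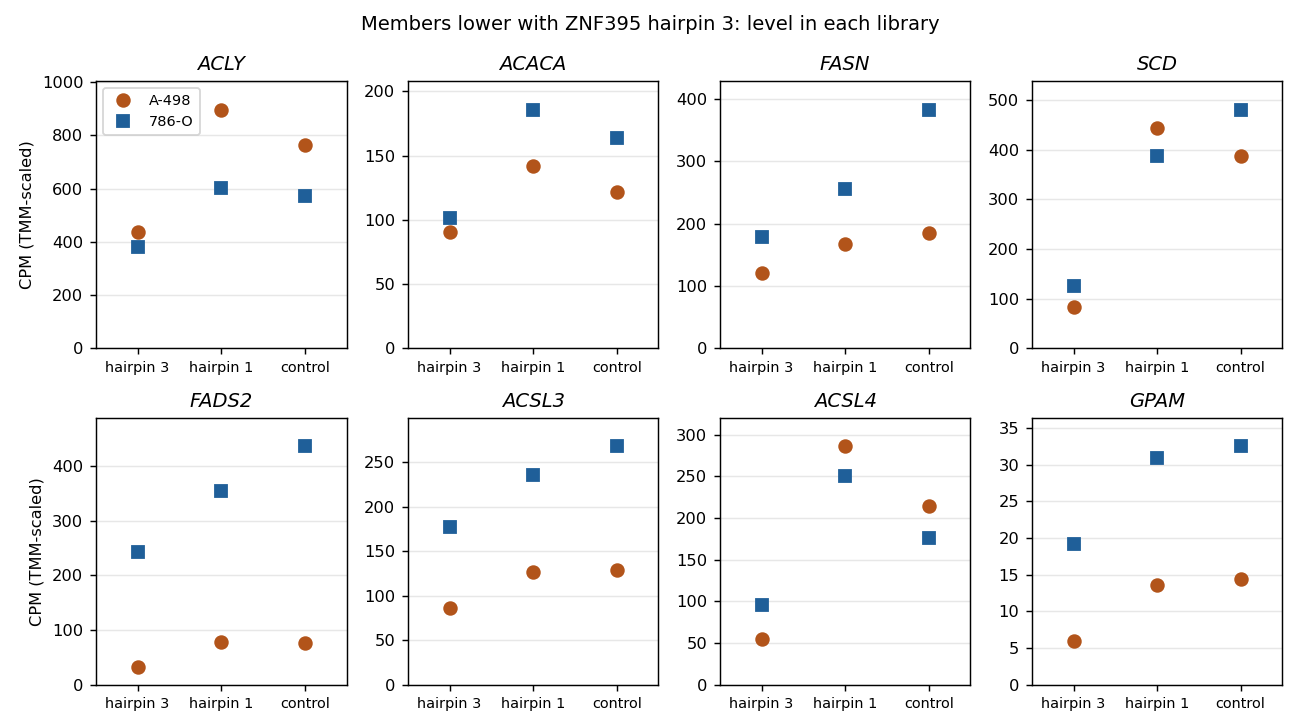
CPM (linear axis from 0) of the 8 genes of the set that fell with hairpin 3, 1 panel per gene and 1 marker per library (circle A-498, square 786-O), with hairpin 3, hairpin 1 and the control from left to right. SCD stands at 83.9 CPM with hairpin 3 in A-498 and 126 CPM in 786-O, below every hairpin 1 and control library.

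The desaturase step moved most. SCD puts the first double bond into palmitate and stearate, giving the monounsaturated fatty acids that triglyceride is rich in. In A-498 it stood at 83.9 CPM with hairpin 3, 443 CPM with hairpin 1 and 388 CPM in the control. The 786-O libraries gave 126 CPM with hairpin 3, 388 CPM with hairpin 1 and 481 CPM in the control. Hairpin 3 was thus the lowest library of each line, and the hairpin 1 and control libraries lay close together. The log2 fold change of hairpin 3 was -2.06 (SE 0.20, adjusted p = 0.0120), and the gene stayed past the threshold under all 10 alternatives tried, between -2.32 and -1.83.

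The promoters of 3 genes that fell are shown because they carry the CCAAT box, the site of the factor NF-Y, which is known to act beside SREBPs on lipid genes. They are the 250 bases before the start site in RefSeq (GRCh38.p14), read 5′ to 3′ on the gene's strand: SCD at chr10:100346983-100347232 (plus strand), ACLY at chr17:41919023-41919272 (minus strand) and ACSL3 at chr2:222860786-222861035 (plus strand). Capitals mark CCAAT or, on the other strand, ATTGG.
SCD: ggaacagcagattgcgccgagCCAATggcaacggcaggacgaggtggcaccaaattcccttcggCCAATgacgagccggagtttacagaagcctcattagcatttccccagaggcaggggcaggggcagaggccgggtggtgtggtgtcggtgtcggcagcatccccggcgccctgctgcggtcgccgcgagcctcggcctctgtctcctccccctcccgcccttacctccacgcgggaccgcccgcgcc
ACLY: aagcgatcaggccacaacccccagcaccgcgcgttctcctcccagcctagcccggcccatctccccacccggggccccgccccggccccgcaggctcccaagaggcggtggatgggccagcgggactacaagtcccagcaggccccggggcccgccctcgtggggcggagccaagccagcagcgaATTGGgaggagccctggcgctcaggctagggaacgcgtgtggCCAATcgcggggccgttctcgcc
ACSL3: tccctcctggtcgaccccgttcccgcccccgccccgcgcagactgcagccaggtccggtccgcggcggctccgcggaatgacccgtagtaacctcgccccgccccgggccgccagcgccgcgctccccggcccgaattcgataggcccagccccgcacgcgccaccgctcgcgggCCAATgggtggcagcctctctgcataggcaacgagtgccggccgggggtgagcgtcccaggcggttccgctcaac
A promoter window of 300 bases (250 before and 50 after the start) was at hand for 29 of the 35 genes and for 27305 promoters in all, and both strands were searched, with sites of different motifs counted even where they overlapped. CCAAT was found in 10 of the 29 windows (34.5%), against 35.7% of all promoters, in 4 of the 7 windows of genes that fell (SCD, ACLY, ACSL3 and GPAM) and in 6 of the 22 of genes not called. The sterol element core TCACNCCAC was found in 1 of the 29 (PNPLA2) and in 1.15% of all promoters. The E-box CACGTG was in 2 of the 29 (ELOVL5 and PLIN2) and in 7.43% of all, and neither of these motifs was in the 7 windows of genes that fell (0 each). FASN, which also fell, had no window and was not searched. The GC box GGGCGG was in 21 of the 29 (72.4%), in 6 of the 7 and in 44.6% of all. These are letter matches in 1 window, with no test, and the promoters shown were picked for the match.

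The steps before the desaturase were lower as well. ACLY, which splits citrate to give the acetyl-CoA for synthesis, stood in A-498 at 436 CPM with hairpin 3, 897 CPM with hairpin 1 and 763 CPM in the control. In 786-O it stood at 379 CPM with hairpin 3, 602 CPM with hairpin 1 and 572 CPM in the control. Both hairpin 3 libraries lay below the other 4, and the fold change was -0.70 (SE 0.14, adjusted p = 0.0355). ACACA, the cytosolic acetyl-CoA carboxylase that commits acetyl-CoA to synthesis, had 90.1 CPM with hairpin 3, 142 CPM with hairpin 1 and 121 CPM in the control of A-498. Its 786-O values were 101 CPM with hairpin 3, 186 CPM with hairpin 1 and 164 CPM in the control. Its call was the closest to the threshold (-0.56, SE 0.13, adjusted p = 0.0496).

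FASN, the synthase that builds palmitate, behaved less evenly. In A-498 it stood at 121 CPM with hairpin 3, 167 CPM with hairpin 1 and 185 CPM in the control. In 786-O it stood at 179 CPM with hairpin 3, 256 CPM with hairpin 1 and 383 CPM in the control, so that hairpin 1 lay between hairpin 3 and the control in both lines. It fell with hairpin 3 (-0.86, SE 0.16, adjusted p = 0.0278), while hairpin 1 gave -0.37 (adjusted p = 0.472) and the hairpins themselves differed by -0.49 (adjusted p = 0.094). ACACB, the mitochondrial carboxylase whose malonyl-CoA restrains fatty acid oxidation, was just outside the threshold with hairpin 3 (-0.66, adjusted p = 0.0651). ME1, the cytosolic malic enzyme that makes NADPH, gave -0.38 (adjusted p = 0.130), and ACSS2, which makes acetyl-CoA from acetate, gave -0.31 (adjusted p = 0.371).

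The other desaturases and elongases did not move as a block. FADS2, the delta-6 desaturase that opens the polyunsaturated pathway, had 32.1 CPM with hairpin 3, 78.2 CPM with hairpin 1 and 75.9 CPM in the control of A-498. Its 786-O values were 243 CPM with hairpin 3, 355 CPM with hairpin 1 and 436 CPM in the control. It fell with hairpin 3 (-1.03, SE 0.18, adjusted p = 0.0276). FADS1, the delta-5 desaturase, gave -0.36 (adjusted p = 0.291), with 71.2 CPM under hairpin 3 against 98.0 CPM in the control of A-498 and 220.2 CPM against 266 CPM in 786-O. FADS1 and FADS2 share exon sequence in the annotation and FADS2 also overlaps FEN1, so their counts are uncertain. ELOVL1, which extends saturated chains to very long ones, gave 0.33 (adjusted p = 0.158), and ELOVL6, which extends palmitate to stearate, gave -0.18 (adjusted p = 0.529). SCD5, the other human stearoyl-CoA desaturase, had 2, 1 and 10 counts with hairpin 3, hairpin 1 and the control of A-498, and 15, 13 and 29 counts in the same libraries of 786-O, too few for a firm value. Per kilobase of exon, SCD averaged 59.4 CPM and SCD5 0.0336 CPM over the 6 libraries.

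Of the 3 genes of fatty acid activation, 2 fell with hairpin 3, ACSL4 and ACSL3. Acyl-CoA synthetases link a fatty acid to CoA so that it can be used, and ACSL4 prefers arachidonic acid. ACSL4 stood in A-498 at 54.5 CPM with hairpin 3, 286 CPM with hairpin 1 and 214 CPM in the control. In 786-O it stood at 95.7 CPM with hairpin 3, 250.1 CPM with hairpin 1 and 176 CPM in the control. Hairpin 3 was far below both, at -1.40 (SE 0.27, adjusted p = 0.0307), and hairpin 1 lay above the control in each line without passing the test (0.46, adjusted p = 0.613). ACSL3, which sits on nascent droplets, had 86.1 CPM with hairpin 3, 127 CPM with hairpin 1 and 129 CPM in the control of A-498. The 786-O libraries held 177 CPM with hairpin 3, 235 CPM with hairpin 1 and 268 CPM in the control (-0.59, SE 0.12, adjusted p = 0.0374). ACSL1, the third of these synthetases in the set, gave 0.07 (adjusted p = 0.852).

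GPAM, the mitochondrial acyltransferase that starts glycerolipid synthesis, had 5.90 CPM with hairpin 3, 13.7 CPM with hairpin 1 and 14.4 CPM in the control of A-498. For 786-O the levels were 19.2 CPM with hairpin 3, 31.0 CPM with hairpin 1 and 32.5 CPM in the control. Its fold change was -1.01 (SE 0.18, adjusted p = 0.0270). The later steps of triglyceride assembly did not pass the test of hairpin 3 against the control. AGPAT2, which adds the second acyl chain, gave -0.26, the phosphatidate phosphatases LPIN1 and LPIN2 gave -0.31 and -0.10, and DGAT1 and DGAT2, which add the last chain, gave -0.05 and -0.08 (adjusted p = 0.305 to 0.859).

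Droplet and lipolysis genes did not pass the test against the control. PNPLA2 and G0S2 were called with hairpin 3 by DESeq2 and without the filter on low counts. Those fits called 12.9% (DESeq2) and 8.2% (no filter) of all genes, against 6.71% in the main fit. PLIN2, the main droplet coat of cells that are not adipocytes, had 535 CPM with hairpin 3, 435 CPM with hairpin 1 and 489 CPM in the control of A-498. In 786-O it had 152 CPM with hairpin 3, 116 CPM with hairpin 1 and 123 CPM in the control. Hairpin 3 was the highest library of each line and hairpin 1 the lowest, with fold changes against the control of 0.22 (adjusted p = 0.315) and -0.13 (adjusted p = 0.785). PLIN3, the broadly expressed perilipin, had 129 CPM with hairpin 3, 121 CPM with hairpin 1 and 156 CPM in the control of A-498. Its 786-O values were 148 CPM with hairpin 3, 154 CPM with hairpin 1 and 196 CPM in the control. Both hairpins lay below the control in both lines, at -0.33 for hairpin 3 (adjusted p = 0.140) and -0.35 for hairpin 1 (adjusted p = 0.375). CIDEC, a droplet fusion protein of adipocytes, had 5, 18 and 16 counts with hairpin 3, hairpin 1 and the control of A-498, and 0, 1 and 0 counts in 786-O.

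PNPLA2, which encodes ATGL, the lipase of the first step of triglyceride breakdown, lay just outside the threshold with hairpin 3 (-0.56, adjusted p = 0.0932). It had 44.6 CPM with hairpin 3 and 55.7 CPM in the control of A-498, and 27.8 CPM with hairpin 3 and 49.3 CPM in the control of 786-O. G0S2, an inhibitor of that lipase, had 28.6 CPM with hairpin 3, 38.6 CPM with hairpin 1 and 26.4 CPM in the control of A-498. The 786-O libraries held 61.1 CPM with hairpin 3, 41.5 CPM with hairpin 1 and 15.4 CPM in the control. All knockdown libraries lay above their control, by little in A-498 with hairpin 3 and by much in 786-O, and the test was not passed with hairpin 3 (1.05, SE 0.39, adjusted p = 0.150) or hairpin 1 (0.92, SE 0.38, adjusted p = 0.472). HILPDA, the other inhibitor, gave 0.19 with hairpin 3 (adjusted p = 0.473), ABHD5, the activator of the lipase, gave 0.11 (adjusted p = 0.779), and MGLL, which splits monoglyceride, gave -0.45 (adjusted p = 0.220). LIPE, hormone-sensitive lipase, gave 0.02 (adjusted p = 0.978) at 14 to 20 counts in A-498 and 97 to 129 counts in 786-O.

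The set holds 2 transcription factors, SREBF1 and PPARG, and neither passed the test. SREBF1 had 85.4 CPM with hairpin 3, 85.99 CPM with hairpin 1 and 98.3 CPM in the control of A-498. For 786-O the levels were 71.1 CPM with hairpin 3, 74.8 CPM with hairpin 1 and 100.2 CPM in the control. Every knockdown library lay below its control (hairpin 3 -0.35, adjusted p = 0.144; hairpin 1 -0.31, adjusted p = 0.465). PPARG, the nuclear receptor of adipogenesis, had 44.5 CPM with hairpin 3, 49.8 CPM with hairpin 1 and 37.9 CPM in the control of A-498. In 786-O it had 14.5 CPM with hairpin 3, 16.8 CPM with hairpin 1 and 12.1 CPM in the control. Here every knockdown library lay above its control (hairpin 3 0.25, adjusted p = 0.268; hairpin 1 0.43, adjusted p = 0.295). Of the uptake genes, the fatty acid carrier FABP5 gave 0.34 with hairpin 3 (adjusted p = 0.381). CD36, a fatty acid translocase, had 70, 15 and 22 counts with hairpin 3, hairpin 1 and the control of A-498, and 6, 4 and 4 counts in 786-O, and its 1.45 with hairpin 3 did not pass (adjusted p = 0.0982).

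**Figure D2:**
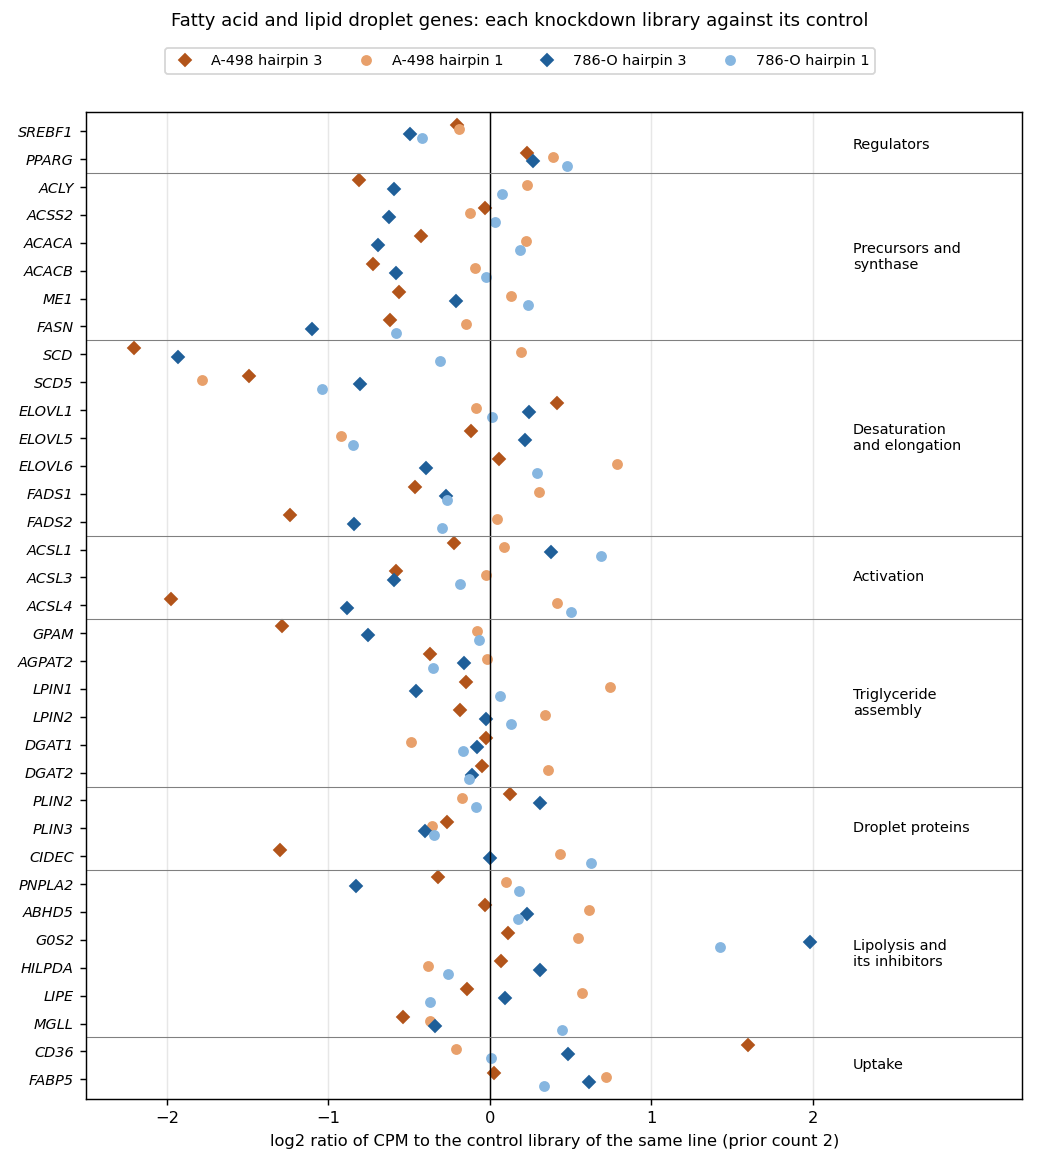
Log2 ratio of each knockdown library to the control of its own line for the 35 genes, grouped by role, with 1 marker per library. Diamonds are hairpin 3 and circles hairpin 1, orange for A-498 and blue for 786-O; for SCD both diamonds lie well to the left of both circles, and for G0S2 all 4 markers lie to the right of 0.

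The hairpins were also set against each other. Compared with hairpin 1, 10 of the 35 genes were lower with hairpin 3 and 1 was higher, where 9.48% of all genes tested were called, 5.4% lower and 4.09% higher. The lower genes were SCD (-2.02, SE 0.20, adjusted p = 0.00846), ACSL4 (-1.85, SE 0.27, adjusted p = 0.0141), GPAM, FADS2, ACLY, ACACA, LPIN1, ELOVL6, PNPLA2 and ME1, the last 8 between -0.94 and -0.57. SCD stayed past the threshold in all 10 alternatives, between -2.33 and -1.69. The other calls leaned on the hairpin 1 libraries. ACLY, ELOVL6, FADS2, GPAM, LPIN1, PNPLA2 and ME1 lost their call without either of them, in fits with 1 hairpin 1 library left. Without the 786-O hairpin 1 library, ACACA, ACSL4 and ELOVL5 lost theirs too. The median log2 fold change of the set was -0.53 without the 786-O and -0.21 without the A-498 hairpin 1 library. Over all genes it was 0.0020 and 0.00091 in the same fits. In 8 of the 35 genes both hairpin 3 libraries lay below the other 4 libraries (ACACA, ACLY, SCD, ACSL4, LPIN2, PNPLA2, MGLL and ME1), as did 7.56% of all genes tested.

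ELOVL6 and LPIN1 differed between the hairpins without passing the test of either hairpin against the control. ELOVL6 had 89.4 CPM with hairpin 3, 148 CPM with hairpin 1 and 85.8 CPM in the control of A-498. Its 786-O values were 110.4 CPM with hairpin 3, 178 CPM with hairpin 1 and 145 CPM in the control. LPIN1 stood in A-498 at 50.5 CPM with hairpin 3, 94.0 CPM with hairpin 1 and 56.1 CPM in the control. Its 786-O values were 74.0 CPM with hairpin 3, 107 CPM with hairpin 1 and 102 CPM in the control. In A-498 the hairpin 1 library lay above the control and hairpin 3 near it, while in 786-O hairpin 3 lay below the control for both genes. Against the control, hairpin 1 gave 0.53 for ELOVL6 (adjusted p = 0.303) and 0.41 for LPIN1 (adjusted p = 0.484).

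ELOVL5 was the gene that was higher with hairpin 3 than with hairpin 1 (0.94, SE 0.13, adjusted p = 0.0141). It elongates polyunsaturated chains. In A-498 it had 149 CPM with hairpin 3, 85.2 CPM with hairpin 1 and 161 CPM in the control. The 786-O libraries held 342 CPM with hairpin 3, 164 CPM with hairpin 1 and 295 CPM in the control. Hairpin 1 was the lowest library of each line, while hairpin 3 and the control lay close together (0.05, adjusted p = 0.846).

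Hairpin 1 against the controls moved 0 of the 35 genes past the threshold, where 0.149% of all genes tested were called (0.0397% higher, 0.109% lower). At an unadjusted p under 0.05 there were 9 of the 35, beside 2106 of the 20144 genes tested. DESeq2 called 1 (and 2.31% of all genes) and limma-voom 0. The closest was ELOVL5 (-0.89, SE 0.13, adjusted p = 0.103), which is also the gene DESeq2 called. When either hairpin 3 library was left out, edgeR called 2 genes, ELOVL5 and G0S2, in fits that called 2.47% of all genes (without A-498 hairpin 3) and 3.04% (without 786-O hairpin 3). The median over the set was -0.01, with 17 genes positive and 18 negative. SCD gave -0.04 (adjusted p = 0.964), ACLY 0.16 (adjusted p = 0.772) and ACACA 0.20 (adjusted p = 0.648).

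With the hairpins pooled, 0 of the 35 genes passed the test against the controls, as did 0% of all genes tested by edgeR. For the set, 5 genes had an unadjusted p under 0.05, beside 1013 of the 20144 tested, the smallest adjusted p was 0.939, and DESeq2, limma-voom and the fit with the hairpin as a block each called 0. Within A-498 and within 786-O the pooled knockdown also called 0 of the 35 by edgeR, DESeq2 and limma-voom (0% of all genes by edgeR in each), with 1 gene at an unadjusted p under 0.05 in each line, SCD5 in A-498 and G0S2 in 786-O. These tests set 2 hairpins against 1 control library, and their spread holds the difference between the hairpins, so a count of 0 says little. The difference of the knockdown effect between A-498 and 786-O called 0 of the 35 by the same 3 tools (0% of all genes by edgeR), and 1 gene, G0S2, had an unadjusted p under 0.05 (-1.39, SE 0.51, adjusted p = 0.99998). In the authors' deposited table, which sets control over knockdown, 0 genes of the set had an adjusted p under 0.05, and the smallest was that of G0S2 (log2 fold change -0.66, adjusted p = 0.466).

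The lines differed in these genes about as often as in all genes. In A-498 against 786-O, 5 of the 35 genes were higher and 11 lower, where 47.2% of all genes tested were called, 25.7% higher and 21.4% lower. In 18 of the 35 the libraries of A-498 and 786-O did not overlap, against 59.1% of all genes tested. PLIN2 averaged 486 ± 50.1 CPM in A-498 and 130.4 ± 19.3 CPM in 786-O (SD, n = 3 libraries each), with A-498 higher by 1.90 on the log2 scale (SE 0.17, adjusted p = 0.000321). Per kilobase of exon it was the first of the 35 genes in A-498 and the eighth in 786-O. PPARG averaged 44.1 ± 5.93 CPM in A-498 and 14.5 ± 2.37 CPM in 786-O (1.61, SE 0.14, adjusted p = 0.000321). ACACB was also higher in A-498 (2.08, adjusted p = 0.00114), as were CD36 and CIDEC, at the low counts given above.

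The genes lower in A-498 came from several steps. FADS2 averaged 62.1 ± 26.0 CPM in A-498 and 344 ± 96.9 CPM in 786-O (-2.47, SE 0.35, adjusted p = 0.00189), and FADS1 96.7 ± 24.9 CPM in A-498 and 236 ± 26.2 CPM in 786-O (-1.28, SE 0.22, adjusted p = 0.00379). HILPDA (-1.55), GPAM (-1.30), AGPAT2 (-1.18), ELOVL1 (-1.12), ELOVL5 (-1.03), ACSL3 (-0.99) and FASN (-0.75) followed, with adjusted p from 0.00134 to 0.0381. LIPE and SCD5 were lower too, at low counts. Without either control library 10 of the 16 calls remained (ACACB, SCD5, ELOVL1, FADS1, FADS2, AGPAT2, PLIN2, HILPDA, LIPE and PPARG). SCD, the gene that moved most with hairpin 3, gave -0.08 between the lines (adjusted p = 0.929).

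**Figure D3:**
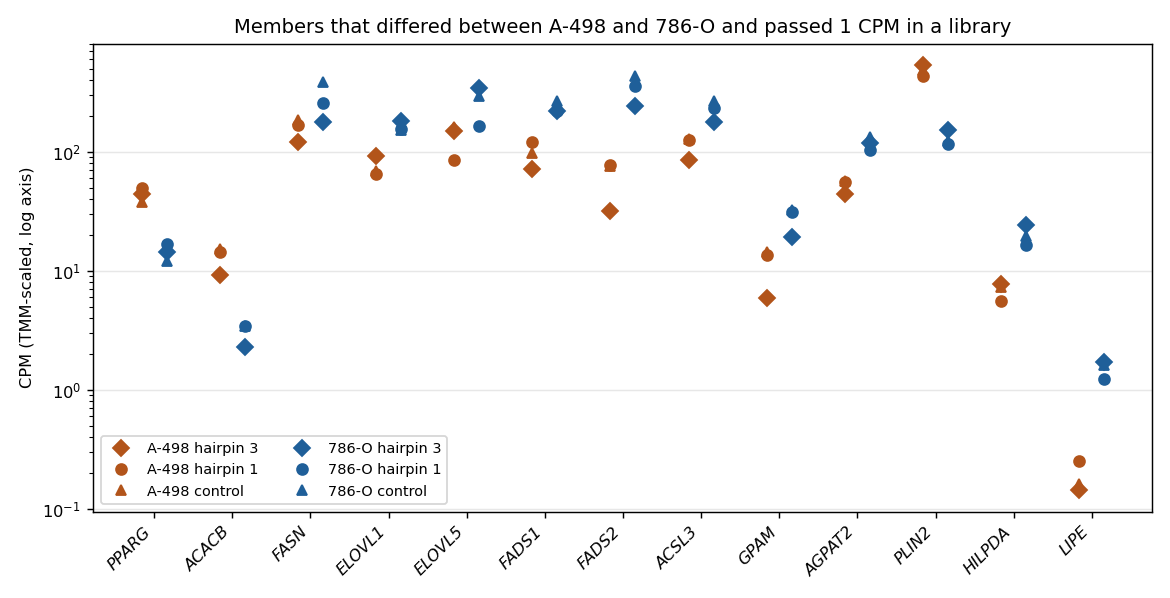
CPM (log axis) of genes of the set that differed between the lines, A-498 left of 786-O, with 1 marker per library (diamond hairpin 3, circle hairpin 1, triangle control). Genes under 1 CPM in every library are left out. PLIN2 and PPARG lie higher in all A-498 libraries, and FADS2 and HILPDA higher in all 786-O libraries.

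Genes around the set were read from lists of other lipid genes. Of 24 further enzymes of fatty acid and glycerolipid synthesis tested, 3 fell and 1 rose with hairpin 3 against the control. Of all genes tested, 4.16% fell and 2.55% rose. PTPLAD1 (now HACD3), a dehydratase of the elongation cycle, had 42.95 CPM with hairpin 3, 199.7 CPM with hairpin 1 and 212 CPM in the control of A-498, and 72.8 CPM with hairpin 3, 217 CPM with hairpin 1 and 248 CPM in the control of 786-O (-2.03, SE 0.18, adjusted p = 0.0112). AGPAT9 (now GPAT3), a microsomal glycerol-3-phosphate acyltransferase, had 26.3 CPM with hairpin 3, 92.5 CPM with hairpin 1 and 77.3 CPM in the control of A-498. For 786-O the levels were 10.7 CPM with hairpin 3, 35.5 CPM with hairpin 1 and 25.8 CPM in the control (-1.42, SE 0.13, adjusted p = 0.0114). PTPLAD2 also fell (-1.08, adjusted p = 0.0167), and the elongase ELOVL2 rose (0.60, adjusted p = 0.0450). Both PTPLAD1 and AGPAT9 kept their call in all 10 alternatives.

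Of 20 other droplet and lipolysis genes tested, 5 fell and 0 rose with hairpin 3 against the control (4.16% and 2.55% of all genes). They were PNPLA3, a lipase-like droplet protein (-1.75, adjusted p = 0.0143), FAF2, a droplet and ER protein of ubiquitin-dependent degradation (-1.22, adjusted p = 0.0172), SOAT1, which makes cholesterol esters (-0.85, adjusted p = 0.0279), METTL7B (-1.76, adjusted p = 0.0319) and HSD17B11 (-0.71, adjusted p = 0.0463). The adipocyte perilipin PLIN1 stood at 0.102 to 0.756 CPM, PLIN4 at 7.32 to 9.14 CPM in A-498 and 0.0533 to 0.202 CPM in 786-O, and PLIN5 at 0 to 0.0374 CPM. Of 14 other uptake genes tested, 2 fell and 0 rose with hairpin 3 (4.16% and 2.55% of all genes). The 2 were CAV1, the caveolar coat protein (-1.30, adjusted p = 0.0175), and DBI, which binds acyl-CoA (-1.19, adjusted p = 0.0173).

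Of 22 genes of SREBP, LXR, ChREBP and PPAR control tested, 1 fell and 1 rose with hairpin 3 against the control. That was a share of 9.09%, against 6.71% of all genes tested. At an unadjusted p under 0.05 there were 8 of the 22, beside 5205 of the 20144 genes tested. MLXIPL, which encodes ChREBP, fell (-2.05, SE 0.37, adjusted p = 0.0276) at 0.0266 to 1.67 CPM, and RNF139, an ER ubiquitin ligase, rose (0.63, adjusted p = 0.0411). SREBF2, the SREBP of cholesterol synthesis, gave -0.72 (adjusted p = 0.0826), SCAP, its escort, -0.09 (adjusted p = 0.717), and INSIG2 0.49 (adjusted p = 0.0706). INSIG1, an SREBP target that retains the escort in the ER, was lower with hairpin 3 than with hairpin 1 (-0.999, SE 0.13, adjusted p = 0.0121), with -0.34 for hairpin 3 (adjusted p = 0.166) and 0.66 for hairpin 1 (adjusted p = 0.173) against the control.

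Cholesterol synthesis, run by the related SREBP-2, had the largest share of lower genes among these lists. Of 21 genes tested, 10 fell and 0 rose with hairpin 3 against the control (4.16% and 2.55% of all genes), at a median of -0.83. LSS, which closes the sterol ring, had 12.2 CPM with hairpin 3, 65.1 CPM with hairpin 1 and 45.5 CPM in the control of A-498, and 35.4 CPM with hairpin 3, 114 CPM with hairpin 1 and 118 CPM in the control of 786-O (-1.81, SE 0.19, adjusted p = 0.0121). Most of these calls were lost without the A-498 or the 786-O control, in fits with 1 control library left. Most calls over all genes were lost in those fits as well. With hairpin 1 against the control, 0 genes passed in each of the 5 lists by edgeR, and limma-voom called 0 in each. DESeq2 called 1 each in the synthesis, droplet and regulator lists, and 2.31% of all genes. At an unadjusted p under 0.05 there were 6, 3, 2, 5 and 2 genes in the synthesis, droplet, uptake, regulator and cholesterol lists. Of the 20144 genes tested, 2106 were under it. The cholesterol genes had a median of 0.30 with hairpin 1, with 19 of 21 positive in the fit of both lines. The lines were unlike in this. In A-498, 18 of the 21 were higher than in the control and 3 lower (median log2 ratio 0.63). In 786-O, 10 were higher and 11 lower (median -0.0071). Compared with hairpin 1, hairpin 3 lowered 14 of the 21, where 5.4% of all genes tested were lower and 4.09% higher. It lowered 6, 5, 3 and 3 genes and raised 0, 2, 1 and 2 in the synthesis, droplet, uptake and regulator lists.

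**Figure D4:**
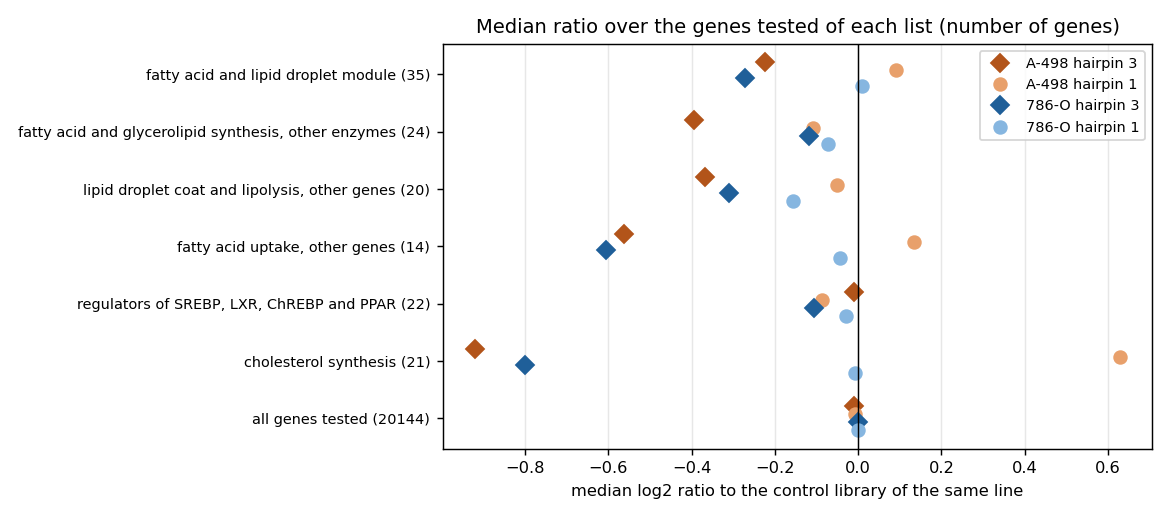
Median log2 ratio to the control of the same line over the tested genes of the set, the 5 lists of other lipid genes and all genes tested (diamonds hairpin 3, circles hairpin 1, orange A-498, blue 786-O). For cholesterol synthesis the medians are -0.92 (A-498) and -0.80 (786-O) with hairpin 3, and 0.63 (A-498) and -0.0071 (786-O) with hairpin 1; for the set they are -0.22 and -0.27 with hairpin 3, and 0.09 and 0.0092 with hairpin 1.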

How the data were processed

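RNA of 6 libraries was sequenced from TruSeq Stranded Total RNA kits, per the labels' protocols. The authors deposited whole-number counts per gene symbol, not normalized. STAR and DESeq2 are the tools, and hg19 and hs37d5 the builds, that stand in the submitters' processing notes. For the counter, the annotation and strand use nothing is given in the sources used here, and 10 of the 35 genes (ACLY, FADS1, FADS2, LPIN2, DGAT1, DGAT2, PLIN3, PNPLA2, HILPDA and FABP5) overlap an exon of another gene in GENCODE, so their counts are uncertain. Per the file headers the authors also deposited further columns: a mean signal (baseMean), p-values raw and adjusted, a Wald score, and log2 fold changes with standard errors, set as control over knockdown, read from its sign for ZNF395. No per-sample column was left unlisted (0).

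Tests ran in edgeR 4.0.16 under R 4.3.3 (TMM scaling, filterByExpr over knockdown status, quasi-likelihood F test, Benjamini-Hochberg adjustment over 20144 genes, threshold 0.05). Line and construct gave the hairpin comparisons (2 residual degrees of freedom), line and knockdown status the pooled knockdown and the lines (3), and 4 means knockdown within a line (2). Standard errors came from the F statistic. CPM are TMM-scaled, and log ratios used a prior count of 2. A count of 0 allows up to 3 counts, for counting error only. No label gives a batch. The script was tested on simulated data. Alternatives were DESeq2-type (RLE) size factors, no filter, DESeq2 1.42.0, limma-voom (limma 3.58.1), the hairpin number as a block and leaving out each library. Per-kilobase levels used GENCODE v29 exon lengths, for comparing genes only.

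The set and the lists (other synthesis, droplet, uptake, regulator and cholesterol genes, and renal, adipocyte, macrophage and HEK293-associated markers) were chosen with earlier results of these data known. Every gene of the set is accounted for. Outside it, 10 fixed genes and at most the 6 genes of a list with the smallest p for hairpin 3 could be named, and any marker gene. Some genes that this rule names are not reported here.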

Additional observations from a re-analysis of the deposited data

How the results depend on the processing

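For hairpin 1 against the control, 0 genes of the set were called by edgeR, 1 without the filter and 1 with DESeq2. Leaving out 1 library moved these counts, and the share of all genes called moved too. Hairpin 1 against the control called 2 without the A-498 (2.47% of all genes) or 786-O (3.04%) hairpin 3 library. Hairpin 3 against the control called 8 without the A-498 (9.89%) and 5 without the 786-O (4.43%) hairpin 1 library. Hairpin 3 against hairpin 1 called 9 without the A-498 (6.04%) or 786-O (5.72%) control. The lines called 10 to 17, with 26.3% to 43.4% of all genes. Fits with 1 library left of a compared construct ranged wider for the hairpin 3 comparisons. The cause was not tested beyond the fewer samples. No log2 fold change of a called gene of the set reversed under any alternative run (0). For hairpin 3 against the control, where edgeR called 8, no filter and DESeq2 each called 11 (adding ACACB, PNPLA2 and G0S2) and limma-voom 9. For hairpin 3 against hairpin 1 (11) they called 14, 15 and 12, and for the lines (16) 16, 17 and 17. Of all genes, limma-voom called 8.12% (hairpin 3 against the control), 11.5% (hairpin 3 against hairpin 1) and 47.8% (the lines). For the lines, no filter called 31.1% of all genes and DESeq2 49.2%. Over all genes, hairpin 1 called 30 genes by edgeR, 478 without the filter and 466 with DESeq2, hairpin 3 called 1351, 2654 and 2589, hairpin 3 against hairpin 1 called 1910, 3117 and 2990, and pooled knockdown called 0, 0 and 92. The replicate numbers are hairpin numbers, which name a reagent and no culture, and the controls carry neither. With the hairpin as a replicate block, the pooled and within-line comparisons still called 0 genes of the set and the lines 23 of 35, in a fit that called 61.9% of all genes. Genes of the set under 1 CPM in every library (3) are limited by depth.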
